A study of Rattus norvegicus with 6 samples.

Results

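The genes examined were 6 small leucine-rich proteoglycans, Fmod, Lum, Dcn, Bgn, Ogn and Prelp, together with 4 genes of the hyaluronan matrix, Hapln1, Vcan, Has2 and Cd44. Every probe set annotated to exactly 1 of these symbols was taken, which gave 20 probe sets for the 10 genes out of 31042 probe sets tested. None of the 20 carried a second symbol. Transcript levels were measured in IEC-6 cells, a rat line with the traits of immature crypt cells of the small intestine. ShControl cells had been infected with a lentivirus carrying a hairpin of scrambled sequence. ShSuz12 cells had received a lentivirus with a hairpin against Suz12, a subunit of the Polycomb repressive complex 2 (PRC2), which methylates histone H3 on lysine 27. Both were puromycin-selected populations grown in medium with fetal bovine serum, and each was hybridised to 3 arrays with RNA from independent experiments. The comparison asked which of these transcripts differ when Suz12 is depleted. It rests on 1 hairpin and 1 selected population a group, so the p-values measure the spread between experiments with the same cells.

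Small leucine-rich proteoglycans are secreted proteins with a short core of leucine-rich repeats, many of which carry chondroitin, dermatan or keratan sulfate chains and bind collagen fibrils. Hyaluronan is a long sugar chain made at the plasma membrane by hyaluronan synthases. Versican binds to it, link proteins hold the pair together, and CD44 is its main receptor at the cell surface. In the intestine this matrix lies mostly in the stroma beneath the epithelium.

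Suz12 itself stood at 8.45, 8.55 and 8.77 in the ShControl arrays and at 5.82, 5.77 and 5.91 in the ShSuz12 arrays, on the log2 scale of the deposited values. It was lower by 2.76 ± 0.09 (SE, n = 3 a group; limma adjusted p = 2.78e-07). Arrays of a group correlated at r = 0.997 to 0.998 over all probe sets, and arrays of different groups at 0.979 to 0.980. The median of an array lay between 6.15 and 6.17 for ShControl and between 6.26 and 6.27 for ShSuz12, and the lowest 10 percent of each array ended between 3.69 and 3.73, which gives an idea of the floor of detection. Of 13 epithelial markers, only Cdh1 and Krt8 were bright (percentiles 99.3 and 90.2 of the ShControl arrays). Epcam and Krt18 lay near the floor (percentiles 5.92 and 8.15), and the rest of that list lay between percentiles 9.10 and 55.3. Col1a1 and Vim, markers of mesenchyme, were among the brightest probe sets (percentiles 99.6 and 99.9). Col3a1, Col5a1, Fn1, Sparc, S100a4 and Pdpn of the same list were bright too (percentiles 93.8 to 99.7). Pdgfra, Thy1, Fap and Prrx1 were dim (percentiles 32.0, 32.4, 20.6 and 17.1), and the rest of the list lay between percentiles 35.4 and 56.6. The cells thus carried transcripts of both kinds in either group. In RNA from whole cultures, fewer cells of a type and less RNA per cell cannot be told apart.

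Transcripts of 6 of the 10 genes were at least 2-fold higher in Suz12-depleted cells: Hapln1, Fmod, Lum, Prelp, Vcan and Dcn. Ogn and Cd44 were lower by less than 2-fold at each of their probe sets, and Bgn and Has2 passed no test. Counted by probe set, 10 of 20 were higher by 2-fold or more with a limma adjusted p below 0.05, against 3.10% of all 31042 probe sets. The members were chosen with earlier results of these data known, so counts of members against the background were not tested. None of the 20 was lower by 2-fold, against 0.396% of all. The lowest log2 difference was -0.72 (Cd44), so no choice of test could change this count. Without the fold limit 11 were higher, where the background was 14.8%, and 6 were lower, where it was 19.5%. The median log2 difference was 1.16 over the 20 probe sets and -0.05 over all probe sets. Counted by gene, at its brightest probe set, 6 of 10 were at least 2-fold higher against 3.82% of 14217 genes. The median difference was 1.55 against -0.05. The brightest probe set is the one with the highest mean over all 6 arrays. With 3 arrays a group an exact permutation test cannot give a p below 0.1, so the calls rest on limma, which shares the spread across probe sets.

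**Figure D1:**
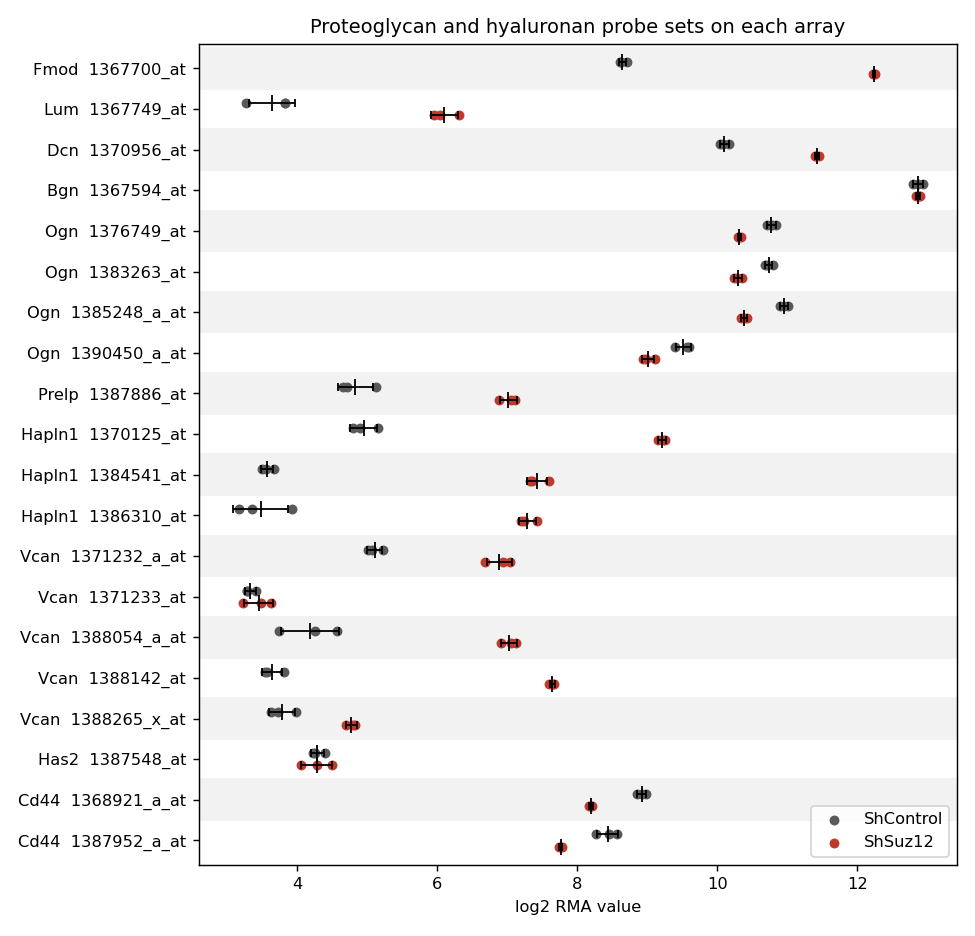
The log2 value of each of the 20 probe sets (rows) on each of the 6 arrays (ShControl grey, ShSuz12 red), with the mean of each group as a vertical tick and 1 SD as a horizontal bar. The Hapln1 and Fmod points of the groups lie far apart, those of Ogn and Cd44 lie apart by less than 1 unit with ShSuz12 on the left, and those of Bgn, Has2 and Vcan 1371233_at overlap.

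Fmod, Lum and Prelp, which belong to the fibromodulin class of the family, all rose, while Omd of the same class, described with the neighbours of Ogn, was lower. Fibromodulin (Fmod), which binds collagen fibrils and regulates their thickness, read 8.61, 8.71 and 8.62 in ShControl and 12.23, 12.24 and 12.26 in ShSuz12. The arrays of a group lay within 0.1 of each other, and the difference of 3.59 ± 0.05 (SE) was 12.1-fold (95% confidence interval 3.47 to 3.72 on the log2 scale; limma adjusted p = 8.61e-09). Its probe set moved from percentile 79.3 to percentile 99.0 of the array. Fmod was thus well above the floor in control cells already.

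Lumican (Lum), the keratan sulfate proteoglycan best known from the cornea, started near the floor instead. Its values were 3.27, 3.83 and 3.83 in ShControl and 6.32, 6.04 and 5.95 in ShSuz12, with no overlap. The log2 difference was 2.46 ± 0.16 (SE), or 5.50-fold, at a limma adjusted p of 1.51e-05. The control values lay at percentile 8.99 of the array and the ShSuz12 values at percentile 48.1. With control values at the floor, this fold is not an exact size. ShControl replicates 2 and 3 hold the same Lum value. Prelp, a proline- and arginine-rich member that anchors basement membranes to collagen, read 4.72, 5.12 and 4.65 in ShControl and 7.12, 7.05 and 6.89 in ShSuz12. It was 4.56-fold higher (log2 difference 2.19 ± 0.12, SE; limma adjusted p = 6.66e-06), and all 3 ShSuz12 arrays were above every ShControl array.

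Of the decorin class, the genes listed at the start held decorin, which passed the test, and biglycan, which did not. Asporin (Aspn), a further leucine-rich family gene described with the neighbours of Ogn, was higher. Decorin (Dcn), which coats collagen fibrils and binds TGF-beta, read 10.04, 10.08 and 10.17 in ShControl and 11.40, 11.41 and 11.45 in ShSuz12. It rose 2.50-fold from an already high level (log2 difference 1.32 ± 0.06, SE; interval 1.19 to 1.45; limma adjusted p = 1.33e-06). Biglycan (Bgn), its closest relative in sequence and chain type, read 12.87, 12.94 and 12.79 in ShControl and 12.84, 12.88 and 12.89 in ShSuz12. The groups overlapped, and the log2 difference was 0.00 with an interval of -0.13 to 0.13 (limma adjusted p = 0.977). Bgn was at percentile 99.5 of the array in both groups. The separate intervals of Dcn and Bgn did not meet, but the difference between them was not tested as such.

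Osteoglycin, or mimecan (Ogn), of a further class of the family, was lower in Suz12-depleted cells at all 4 of its probe sets. At the brightest, 1385248_a_at, the values were 10.90, 10.95 and 11.01 in ShControl and 10.43, 10.34 and 10.38 in ShSuz12. The difference was -0.57 ± 0.06 (SE; limma adjusted p = 1.29e-04). The other probe sets gave differences of -0.51, -0.46 and -0.44, with adjusted p between 4.22e-04 and 0.00121, and in none did the groups overlap. Against the brightest probe set, tested within each array, none of the 3 differed in its change (differences 0.06 to 0.13, limma adjusted p from 0.331 to 0.696). These probe sets read 1 transcript family and are no replicates of each other.

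Among the genes of the hyaluronan matrix the largest difference was that of Hapln1. Hapln1, the cartilage link protein that locks proteoglycans onto hyaluronan, read 5.16, 4.89 and 4.80 in ShControl and 9.26, 9.23 and 9.15 in ShSuz12 at its brightest probe set, 1370125_at. This was a 19.2-fold rise (log2 difference 4.26 ± 0.09, SE; interval 4.04 to 4.48; limma adjusted p = 3.74e-08). The transcript went from percentile 33.9 to percentile 85.7 of the array. The other probe sets, 1384541_at and 1386310_at, were higher by 3.85 and 3.81 on the log2 scale (limma adjusted p = 3.79e-08 and 2.06e-06), from control values of 3.17 to 3.92 close to the floor. Their changes did not differ from that of the brightest at an adjusted p under 0.05 (log2 differences of -0.41 and -0.45, limma adjusted p = 0.0949 and 0.174). Without ShControl replicate 1 the first of these pairs did differ (-0.55, limma adjusted p = 0.0281).

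Versican (Vcan), the large chondroitin sulfate proteoglycan that binds hyaluronan through its amino terminus, had 5 probe sets whose changes ranged from 0.12 to 4.00. The brightest, 1371232_a_at, read 5.07, 5.23 and 5.02 in ShControl and 7.04, 6.69 and 6.94 in ShSuz12, a 3.44-fold rise (log2 difference 1.78 ± 0.10, SE; limma adjusted p = 6.03e-06). Probe set 1388142_at read 3.57, 3.55 and 3.81 against 7.67, 7.66 and 7.60, which was 16.0-fold higher (4.00 ± 0.08, SE; limma adjusted p = 2.26e-08). Its control values lay at the floor, at percentile 8.55 of the array, so this fold is not an exact size. A further probe set, 1388054_a_at, was 7.17-fold higher (2.84 ± 0.18, SE; limma adjusted p = 1.40e-05). These 3 were called and showed no overlap between the groups. Probe set 1388265_x_at read 3.73, 3.63 and 3.98 in ShControl and 4.69, 4.83 and 4.81 in ShSuz12, a difference of 0.996 ± 0.09 (SE; limma adjusted p = 1.15e-04) that fell just short of 2-fold. It was past 2-fold without ShControl replicate 3 (1.10) or without ShSuz12 replicate 1 (1.04). Probe set 1371233_at stayed near the floor in every array, between 3.23 and 3.63, and its groups overlapped (0.12, interval -0.11 to 0.35; limma adjusted p = 0.411).

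Tested within the arrays, 1388142_at and 1388054_a_at rose more than the brightest Vcan probe set, by a further 2.22 ± 0.14 (SE) and 1.06 ± 0.18 (limma adjusted p = 9.21e-06 and 0.00442). That probe set, 1371232_a_at, was brighter than these in ShControl, with a mean of 5.11 against 3.64 and 4.19. In ShSuz12 it lay below both, at 6.89 against 7.64 and 7.03. Probe set 1388265_x_at, at percentile 11.3 in ShControl and 30.3 in ShSuz12, differed by -0.79 ± 0.16 (limma adjusted p = 0.0124). Probe set 1371233_at also differed (-1.66 ± 0.14, limma adjusted p = 5.36e-05), but it lay below the floor on every array and had no level from which a change could be read. The call for 1388265_x_at was lost without ShSuz12 replicate 3 (-0.77, limma adjusted p = 0.0519). Over the members, 4 of 10 such pairs differed, the one with 1371233_at included and all of them of Vcan, where 13.3% of 6609 pairs of probe sets of 1 gene did so in the whole data set. Of these 4 pairs 3 differed by at least 2-fold, where 2.68% of all pairs did. All 4 share 1371232_a_at as their reference, so they are not separate comparisons to set against these shares. Versican is known to be spliced into forms that differ in the domains bearing the sugar chains. Which stretch of the transcript each probe set reads was not analysed here, and 1371233_at and 1388265_x_at lay low enough to be removed by a filter on the 40th percentile of each array, after which 2 of 8 pairs differed.

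Neither of the remaining genes of the hyaluronan matrix was higher. Hyaluronan synthase 2 (Has2), which makes the chain itself, read 4.25, 4.22 and 4.39 in ShControl and 4.28, 4.50 and 4.06 in ShSuz12. These low values (percentiles 21.9 and 21.5) overlapped and gave a difference of -0.01, with an interval of -0.26 to 0.24 (limma adjusted p = 0.963). Cd44, the hyaluronan receptor, was lower in Suz12-depleted cells at both probe sets. Probe set 1368921_a_at read 8.98, 8.85 and 8.93 in ShControl and 8.20, 8.22 and 8.16 in ShSuz12, a difference of -0.72 ± 0.06 (SE), or 1.65-fold (limma adjusted p = 3.82e-05). Probe set 1387952_a_at gave -0.67 ± 0.08 (SE; limma adjusted p = 4.07e-04), and the pair did not differ in change (0.05, interval -0.14 to 0.25; limma adjusted p = 0.721). In neither did the groups overlap. Across all 20 probe sets the groups did not overlap at 11 that were higher and 6 that were lower, where the background was 19.4% and 28.1% of all probe sets, or 47.5% in either direction.

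**Figure D2:**
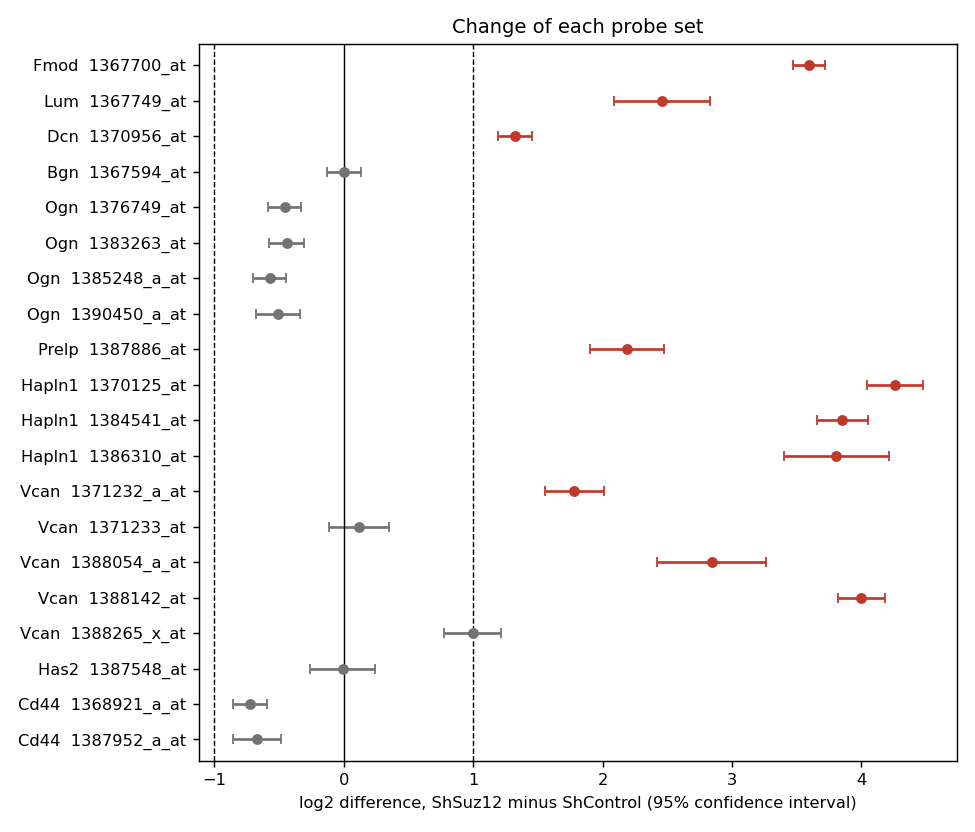
The log2 difference, ShSuz12 minus ShControl, of each of the 20 probe sets with its 95% confidence interval, called probe sets in red, the others in grey and dashed lines at 2-fold. The 3 Hapln1 probe sets and Fmod lie between 3.59 and 4.26, the 5 Vcan probe sets spread from 0.12 to 4.00, and the 4 Ogn and 2 Cd44 probe sets lie between -0.72 and -0.44.

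Several of these genes lie next to each other in the rat genome. In the GRCr8 gene table Hapln1 and Vcan are adjacent protein-coding genes, as are Prelp and Fmod, and Dcn and Lum, so that the 6 genes that rose form 3 neighbouring pairs. The nearest 3 protein-coding genes on each side of the members, chosen by position and not by the rule for named genes, were therefore examined. Of 42 such neighbours 29 had a value, of which 3 were at least 2-fold higher (Edil3, Aspn and Pamr1) and 0 lower, where 3.82% and 0.422% of all genes were. The lowest difference among them was -0.82 (Mtbp, near Has2), so no test could have called a neighbour lower by 2-fold. At an unadjusted limma p under 0.05 with any fold 9 were higher and 9 lower, where 20.1% and 29.7% of all genes were. The median difference of the neighbours was -0.05, the same as over all genes.

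Beyond Hapln1, Edil3, an integrin ligand of the matrix, was higher by 1.05 ± 0.13 (SE; limma adjusted p = 4.54e-04), while Cox7c gave 0.06. Edil3 lay at the floor in ShControl (percentile 4.64) and at percentile 25.2 in ShSuz12, so its fold is not an exact size. On the far side of Vcan, Xrcc4, Tmem167a and Atp6ap1l gave -0.18, -0.21 and -0.10. Around Prelp and Fmod no neighbour was called, although the calcium pump gene Atp2b4 was close to the limit (0.95, limma adjusted p = 0.00425). Opticin (Optc), a further member of the leucine-rich family that lies beside Prelp, gave 0.15 with an adjusted p of 0.136. Around Dcn and Lum, Btg1 gave 0.42 and Eea1 0.06. Keratocan and epiphycan (Kera and Epyc), which lie on the far side of Lum, had no value.

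The stretch around Ogn held both directions. Asporin (Aspn), which lies beyond Omd from Ogn, read 3.75, 3.69 and 3.99 in ShControl and 6.19, 5.92 and 5.92 in ShSuz12 at its brightest probe set. It was 4.60-fold higher (2.20 ± 0.10, SE; limma adjusted p = 2.23e-06), and a dimmer probe set gave 2.90. In ShControl these probe sets of Aspn lay at percentiles 11.9 and 0.05, near or below the floor. Osteomodulin (Omd), which lies between the genes and belongs to the fibromodulin class, was lower by 0.40 (limma adjusted p = 0.0115), as Ogn was. On the other side Cenpp, Nol8 and Iars1 gave -0.36, -0.65 and -0.32. Beside Cd44, Pamr1 was higher by 1.07 (limma adjusted p = 8.51e-04), whereas Slc1a2, which lies between them, gave -0.05. Pamr1 was dim as well, at percentile 17.1 in ShControl and 35.6 in ShSuz12.

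**Figure D3:**
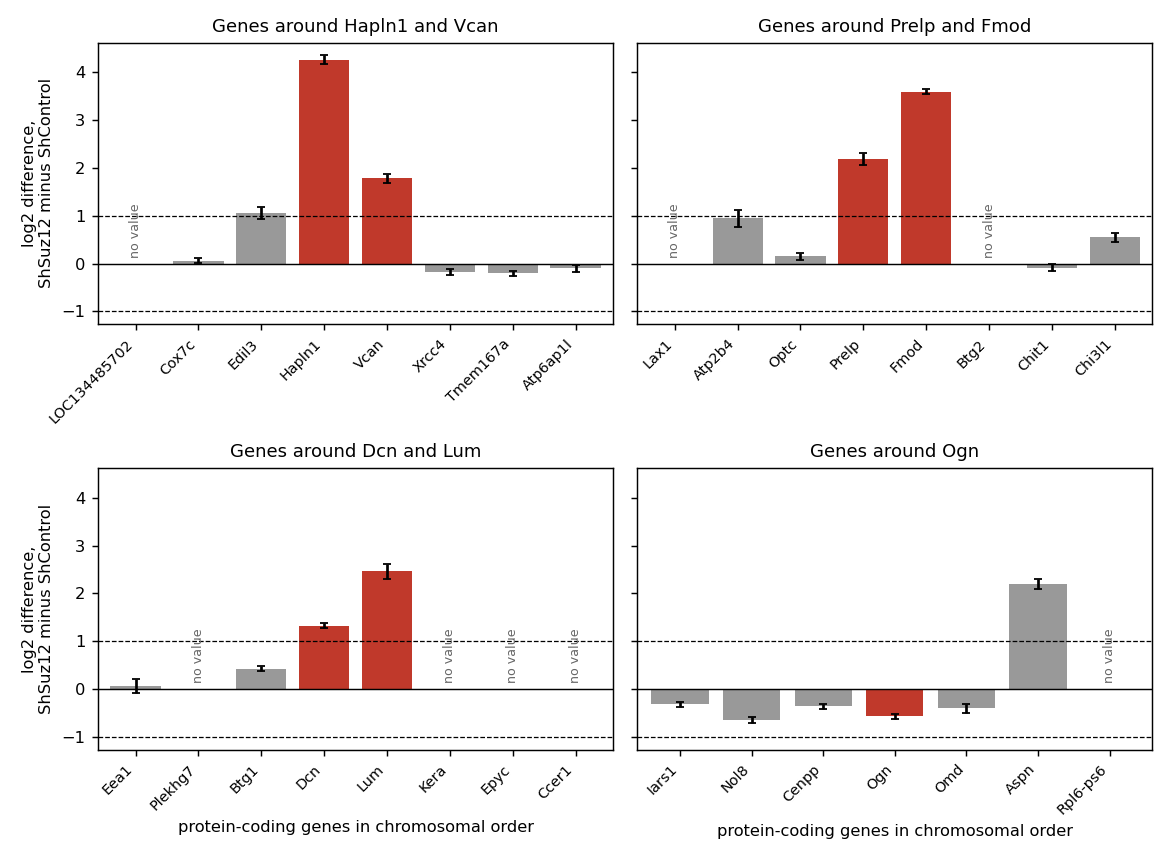
The log2 difference, ShSuz12 minus ShControl, of members (red) and up to 3 protein-coding neighbours on each side (grey) in chromosomal order. Bars show 1 SE and dashed lines 2-fold. The stretches around Cd44 (with Pamr1), Has2 and Bgn are not drawn. The paired members Hapln1 and Vcan, Prelp and Fmod, and Dcn and Lum stand above their neighbours, of which Edil3 reaches 1.05, and Aspn rises to 2.20 in the stretch where Ogn is at -0.57.

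PRC2 is known to sit mainly at promoters rich in CG dinucleotides, so the start regions of the members are shown, first of 4 genes that rose and then of the 2 that were lower. They run from 250 bases before to 50 bases after the start in the RefSeq table of GRCr8, which held a promoter for 6 of the 10 genes (not for Dcn, Bgn, Prelp or Has2). Capitals mark each CG.
Hapln1, chr2:22366717-22367016, plus strand: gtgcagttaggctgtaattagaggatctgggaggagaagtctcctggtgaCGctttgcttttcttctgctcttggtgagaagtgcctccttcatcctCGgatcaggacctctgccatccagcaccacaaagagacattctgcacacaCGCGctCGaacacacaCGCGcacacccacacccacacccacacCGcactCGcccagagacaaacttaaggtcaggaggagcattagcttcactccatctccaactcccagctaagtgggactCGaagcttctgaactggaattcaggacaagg
Vcan, chr2:22595906-22596205, minus strand: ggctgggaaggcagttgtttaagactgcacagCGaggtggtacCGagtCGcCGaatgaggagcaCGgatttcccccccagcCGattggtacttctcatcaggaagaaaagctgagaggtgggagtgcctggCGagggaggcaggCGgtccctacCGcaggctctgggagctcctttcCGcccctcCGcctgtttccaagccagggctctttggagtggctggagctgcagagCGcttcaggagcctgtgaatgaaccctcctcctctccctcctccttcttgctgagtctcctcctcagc
Fmod, chr13:48045317-48045616, plus strand: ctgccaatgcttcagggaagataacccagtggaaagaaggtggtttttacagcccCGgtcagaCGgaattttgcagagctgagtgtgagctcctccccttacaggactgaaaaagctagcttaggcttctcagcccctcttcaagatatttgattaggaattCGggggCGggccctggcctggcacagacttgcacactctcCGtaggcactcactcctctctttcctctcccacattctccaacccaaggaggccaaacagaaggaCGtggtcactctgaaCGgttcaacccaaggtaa
Lum, chr7:34245456-34245755, plus strand: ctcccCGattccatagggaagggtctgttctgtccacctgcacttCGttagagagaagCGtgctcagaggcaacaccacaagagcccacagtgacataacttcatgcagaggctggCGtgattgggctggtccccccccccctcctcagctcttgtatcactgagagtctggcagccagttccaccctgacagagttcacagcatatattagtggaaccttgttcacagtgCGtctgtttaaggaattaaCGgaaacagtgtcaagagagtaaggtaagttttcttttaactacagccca
Ogn, chr17:15258946-15259245, minus strand: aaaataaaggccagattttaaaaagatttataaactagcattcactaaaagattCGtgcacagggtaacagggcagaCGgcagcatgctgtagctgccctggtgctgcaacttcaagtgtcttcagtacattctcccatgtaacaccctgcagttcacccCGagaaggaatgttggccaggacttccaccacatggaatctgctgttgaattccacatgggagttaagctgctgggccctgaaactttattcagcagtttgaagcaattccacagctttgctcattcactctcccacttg
Cd44, chr3:109699375-109699674, minus strand: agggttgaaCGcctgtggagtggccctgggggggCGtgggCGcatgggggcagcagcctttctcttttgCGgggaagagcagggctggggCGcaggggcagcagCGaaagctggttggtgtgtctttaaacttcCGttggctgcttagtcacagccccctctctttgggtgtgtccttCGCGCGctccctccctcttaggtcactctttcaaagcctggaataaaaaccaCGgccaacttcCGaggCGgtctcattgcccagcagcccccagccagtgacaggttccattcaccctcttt

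The number of CG dinucleotides in these 300 bases was 10 in Hapln1, 12 in Vcan, 7 in Fmod and 6 in Lum, against 3 in Ogn and 13 in Cd44. The median over 33469 rat promoters of this length was 7, with quartiles of 3 and 19. The counts of the shown genes that rose lay between those of the 2 genes that were lower, and none of the 6 reached the upper quartile. Dcn and Prelp, which also rose, had no start region here. The counts cover these 300 bases only, and the sequence farther out was not read. Whether the CG counts go with the changes, or whether PRC2 sits at these genes, was not tested. The GC content was 53.7% in Hapln1, 61% in Vcan, 52.7% in Fmod, 50.7% in Lum, 46% in Ogn and 60.3% in Cd44. A second start of Vcan in the table, shifted by less than the length of the window, held 11 CG.

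The promoters were also searched on both strands for short motifs. The TATA box TATAAA was held by 14.2% of all promoters, the CCAAT box by 37.5% and the GC box GGGCGG by 33.1%. CCAAT was found in Fmod, Lum and Vcan, GGGCGG in Fmod and Vcan, and TATAAA in Ogn only among the 6. Hapln1 and Cd44 held none of them. A match is a run of letters and no measured binding, and no chromatin data were used here.

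Other members of the leucine-rich family were examined next, from a list of 12 genes of which 9 were measured. Aspn (above) and Podnl1, a podocan relative, were at least 2-fold higher, and 0 were lower by 2-fold. The lowest difference was -0.40 (Omd), so no test could have called a gene of this list lower. Over all genes 3.82% were called higher and 0.422% lower. Podnl1 read 4.57, 4.43 and 4.17 in ShControl and 5.41, 5.63 and 5.42 in ShSuz12, 2.14-fold higher (1.10 ± 0.11, SE; limma adjusted p = 1.52e-04). Without the fold limit 5 of the 9 were higher and 1, Omd, was lower, where the background was 17.1% and 23.3% of all genes. The median difference was 0.31 against -0.05 over all genes. Chad, Chadl and Optc passed no test and gave -0.15, -0.07 and 0.15.

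Of 31 further genes for the synthesis, turnover and binding of hyaluronan, 24 were measured. Has1, Has3 and Hyal1 were among those without a value. Of the 24, 1 was called higher and 1 lower, where 3.82% and 0.422% of all genes were. The median difference was -0.05, as over all genes. Tnfaip6, whose product TSG-6 moves protein chains onto hyaluronan, was 3.39-fold higher at its brightest probe set (1.76 ± 0.09, SE; limma adjusted p = 3.23e-06), while a dimmer probe set near the floor gave 0.07. Cemip, which takes part in breaking hyaluronan down, read 11.37, 11.52 and 11.42 in ShControl and 10.30, 10.30 and 10.35 in ShSuz12. It was the called gene that fell, by 1.12 on the log2 scale or 2.17-fold (SE 0.06; limma adjusted p = 3.74e-06). Ugdh and Ugp2, which supply the sugar precursors, gave -0.07 and 0.09 (adjusted p = 0.335 and 0.291).

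Of the relatives of Hapln1 and Vcan, none was called at its brightest probe set. Hapln2, Hapln3 and Hapln4 gave -0.05, 0.51 and 0.03, of which only Hapln3 passed the adjusted p (0.00146), below 2-fold. Another Hapln4 probe set, 1391575_at, pointed out after its value was seen, was higher by 1.74 (limma adjusted p = 1.48e-06). In the ShSuz12 arrays its mean of 7.10 was above the 6.85 of the probe set brightest over all arrays. A further one near the floor, 1386514_at, gave 0.16 (limma adjusted p = 0.0435). The aggrecan family members Acan, Ncan and Bcan, which bind hyaluronan as versican does, each gave 0.00 (adjusted p from 0.988 to 0.998), at values from 4.56 to 5.92.

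Of 34 genes that build chondroitin, dermatan and keratan sulfate chains, 28 were measured, with a median of -0.05. Of the 28, 1 was called higher and 1 lower, where 3.82% and 0.422% of all genes were. Papss2, which makes the sulfate donor, read 5.82, 5.64 and 6.05 in ShControl and 8.04, 7.97 and 7.94 in ShSuz12. It was 4.43-fold higher (2.15 ± 0.10, SE; limma adjusted p = 2.10e-06), and its second probe set gave 1.74. Chst2, a sulfotransferase that acts on N-acetylglucosamine, fell by 1.44 on the log2 scale (SE 0.10; limma adjusted p = 2.17e-05). The related donor enzyme Papss1 gave -0.23 (limma adjusted p = 0.0168) from a bright level.

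Proteases that cut versican and its relatives were read from a list of 7, of which 6 were measured. Of these, 1 was called higher and 0 lower. The lowest difference was 0.02, so no test could have called any of them lower. Over all genes 3.82% were called higher and 0.422% lower. Adamts1, a metalloproteinase that cleaves versican, was 3.29-fold higher (1.72 ± 0.07, SE; limma adjusted p = 6.91e-07). Adamts5 was higher by 0.84 (limma adjusted p = 1.57e-05), below 2-fold. Adamts4, Adamts8, Adamts9 and Adamts15 gave 0.02 to 0.12, and the median of the list was 0.08.

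Markers of epithelium and of other cell types that a culture could hold were read beside these genes. Of 17 fibroblast and mesenchyme markers 4 were at least 2-fold higher, the collagen genes Col1a2 (2.34), Col3a1 (2.33) and Col6a1 (1.96) and the receptor gene Pdgfrb (1.66). Their mean log2 level was 8.63 to 8.68 in the ShControl arrays and 9.22 to 9.27 in the ShSuz12 arrays, the median difference was 0.15, and 1 of them lay under the 20th percentile on all arrays. Of 6 measured cartilage markers, which include Acan, 1 was higher (Col11a1, 1.69), and the mean level was 5.16 to 5.25 in ShControl and 5.26 to 5.42 in ShSuz12. Of 13 epithelial markers 2 were higher, Cdx2 (1.56) and Krt19 (1.19). The bright markers Cdh1 and Krt8 were lower by 0.76 and 0.41 (limma adjusted p = 6.38e-05 and 9.64e-04), below 2-fold. The mean level of the list was 5.70 to 5.76 in ShControl and 5.82 to 5.92 in ShSuz12. Markers of smooth muscle, leukocytes and endothelium had 0 called genes of 7, 8 and 7. All differences in these lists lay between -0.66 and 0.78, so no test could have called a gene at 2-fold. At an unadjusted limma p under 0.05 in either direction there were 6, 4 and 3. Their medians were -0.20, -0.17 and -0.06. Over all genes 3.82% were called higher and 0.422% lower. At an unadjusted limma p under 0.05 with any fold, 20.1% of all genes were higher and 29.7% lower. The part of these marker levels in the changes of the proteoglycan genes was not tested.

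**Figure D4:**
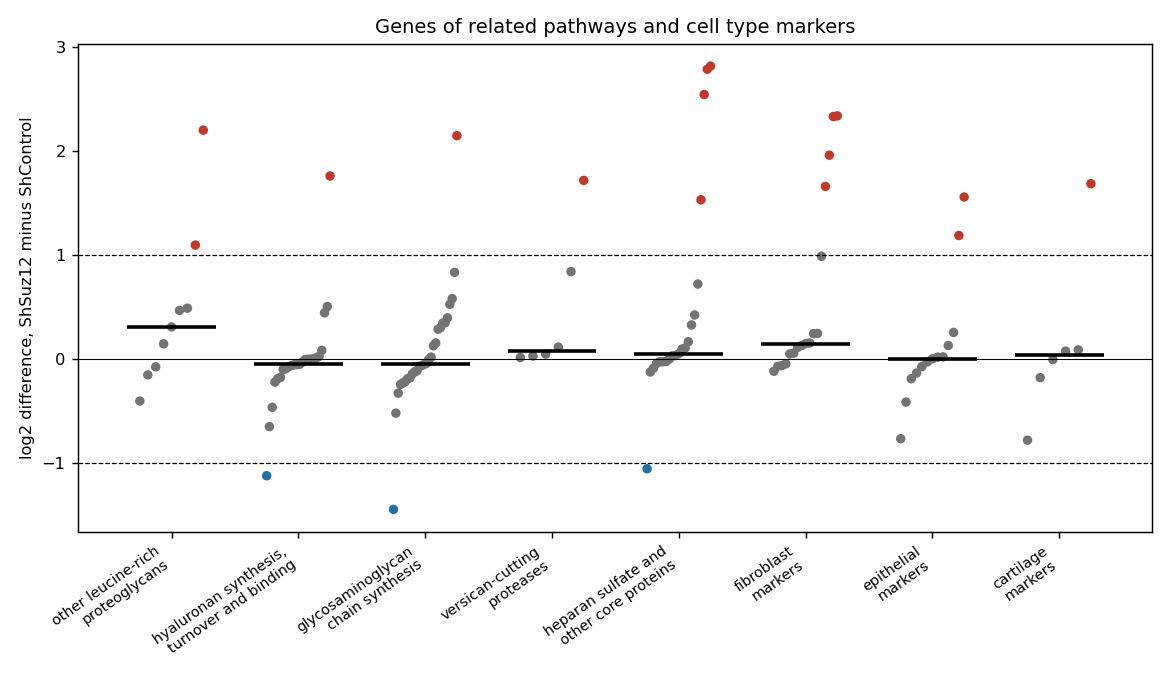
The log2 difference, ShSuz12 minus ShControl, of each measured gene in 8 lists at its brightest probe set, with points spread sideways for clarity, the median as a thick line, dashed lines at 2-fold, and called genes in red (higher) or blue (lower). The medians lie between -0.05 and 0.31, and single genes such as Aspn (2.20), Papss2 (2.15) and Adamts1 (1.72) lie well above the rest of their lists.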

How the data were processed

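Transcript levels were measured on 6 Affymetrix Rat Genome RAE230 2.0 arrays, 3 of ShControl and 3 of ShSuz12 IEC-6 cells. The authors processed the scanner files with RMA in the FlexArray software (background correction, normalization between arrays, summary of the probes), and the deposited values are on the log2 scale, 1 for each probe set and array. No version of RMA was given in the sources used here. RMA pulls low values together near the floor, so fold changes from dim probe sets may be understated. The present calls that the methods used to select expressed genes were not used here, and percentile filters stood in for them as alternatives.

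All 57 control probe sets were left out of 31099. The other 31042 were fitted together in limma 3.58.1 (lmFit, then eBayes; R 4.3.3), and the two-sided p-values were adjusted for all probe sets by the Benjamini-Hochberg method. The term called means an adjusted p below 0.05 with a difference of 2-fold or more. Probe sets of 1 gene were compared by fitting their within-array differences over 6609 pairs. A percentile is the place of a probe set among all on the same array. Figures were drawn with matplotlib 3.10.9. The number of arrays limits the precision. Symbols came from the platform annotation, with 20826 probe sets of 1 symbol, 436 of several and 9780 unnamed here. All 20 member probe sets matched the GRCr8 table by gene identifier.

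All members, Suz12 and up to 4 called genes of each list with the largest difference were named by rule, while neighbours were chosen by position and the uncalled genes quoted beside them were picked after their values were seen. The members and lists were chosen with earlier results of these data known. Alternatives were the methods' t-test, percentile filters, other scalings, a trended robust variance, the replicate number as a block, other fold limits, counting by gene, and leaving out each array.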

Additional observations from a re-analysis of the deposited data

How the results depend on the processing

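Of 270 log2 differences of member probe sets recomputed under 14 alternative settings, 268 kept their side of the threshold. Of the called differences 0 reversed and 0 were lost. In 6 of these settings (the t-tests, the filters, the trended variance and the block) the difference itself is the same by construction, so 110 of the 270 could change in their p alone and 160 could reverse. The 2 exceptions were Vcan 1388265_x_at, which passed 2-fold without ShControl replicate 3 or ShSuz12 replicate 1. Bgn (-0.10 to 0.04) and Has2 (-0.12 to 0.10) crossed zero between settings without being called. Subtracting the array medians moved the median difference over all probe sets from -0.05 to -0.15 and raised the count of lower probe sets from 123 to 194. A filter at the 60th percentile left 557 probe sets higher over all and 6 among the members, since it removed 7 of 20 member probe sets, Lum and Prelp included, and left 13. A filter at the 40th percentile on both probe sets left 2 of 8 member pairs that differed. Without the fold limit 4607 probe sets were higher and 6054 lower, with 6 lower members, and at 1.5-fold these were 1950, 731 and 2. Counted by gene, 543 were higher and 60 lower at the brightest probe set, and 500 and 55 by the mean of the probe sets, with 6 members higher in both. The methods' t-test with Benjamini-Hochberg called 954 higher and 121 lower, and the same 10 and 0 counts among the members. Leaving out each array gave 943 to 974 higher and 119 to 130 lower, 10 to 11 members higher and 0 lower, and 3 to 5 member pairs that differed. Same-numbered arrays of the groups did not deviate together (r = 0.02, -0.04 and -0.06), and with the replicate number as a block the counts were 962 and 123 over all, 10 and 0 among the members, and 4 pairs. Low signal limits what Lum, Has2 and the dim Vcan probe sets can show.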

Other observations

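Proteoglycans of the cell surface and those with heparan sulfate chains were examined as a list of 23 genes, each at its brightest probe set. Of 21 measured, 4 were at least 2-fold higher and 1 lower in Suz12-depleted cells, where 3.82% and 0.422% of all genes were. The median log2 difference was 0.05. The glypicans, which are tied to the membrane by a lipid anchor and modulate growth factor signalling, moved both ways. Gpc3 read 5.37, 5.48 and 5.31 in ShControl and 8.18, 8.13 and 8.21 in ShSuz12 (2.79 ± 0.06, SE; limma adjusted p = 3.94e-08). Gpc1 was higher by 2.54 and Gpc4 by 1.53 (limma adjusted p = 2.26e-08 and 9.76e-07). Gpc6 read 11.99, 11.93 and 11.91 against 10.86, 10.87 and 10.95 and fell by 1.05 (limma adjusted p = 3.80e-06). Serglycin (Srgn), the core protein of secretory granules, was higher by 2.82 (SE 0.08; limma adjusted p = 1.42e-07), from values of 4.10 to 4.27. The syndecans Sdc1, Sdc2 and Sdc3 gave 0.04, -0.02 and -0.09 with adjusted p of 0.445 or more, and Sdc4 was higher by 0.43 (limma adjusted p = 0.00532), below 2-fold.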
